A study of Mus musculus with 2 samples.

Results

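Immediate early genes are transcribed within minutes of a stimulus from regulators already present in the cell, and NF-kappaB feedback genes are switched on by that factor and then restrain it. A set of 36 such genes was followed in 2 mouse single-cell libraries, chosen by gene symbol out of the 55357 features that both count matrices list, and all 36 symbols were found in both. One library is labelled WT and the other KO for Runx3, a RUNX-family transcription factor used by cytotoxic lymphocytes, and the tissue label is colon. The series text describes RUNX3-/- mice in which tumour models were set up, with the infiltration of NK cells as the question. Which tumour model each library came from, how many animals were pooled, their age and strain, and the deleted exons are not stated in the sources. With 1 library per genotype there was no replicate, so no p-value is given, every interval covers counting error only, and a difference between the libraries in sex, handling or cell mix cannot be told apart from one between the genotypes.

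AP-1 factors of the Fos and Jun families, the Egr and Klf zinc fingers and the orphan receptors of the Nr4a family are transcription factors that growth factors, cytokines, calcium signals and the handling of tissue all induce. Their messages are short-lived, being removed by decay factors such as Zfp36, while the Dusp phosphatases switch off the MAP kinases that induced them. In NF-kappaB feedback, the inhibitor encoded by Nfkbia and the ubiquitin-editing enzyme encoded by Tnfaip3 are made in response to the factor and shut it down, and macrophages carry out this cycle whenever they meet bacterial products or inflammatory cytokines.

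Promoter sequence was searched for short motifs linked to these inputs. RefSeq promoter windows on GRCm38.p6 were found for 29 of the 36 members, and the 250 bases upstream of the listed start were searched on both strands for the AP-1 site TGANTCA, the cyclic AMP response element half-site TGACG, the CArG box bound by serum response factor and the kappaB site. The half-site was present in 58.6% of member windows against 19.8% of 27025 genes, the kappaB site in 24.1% against 4.46%, the CArG box in 10.3% against 1.62%, and the AP-1 site in 10.3% against 7.82%. A kappaB match was held by 7 members, namely Nfkbia, Ier3, Tnfaip3, Fos, Fosb, Fosl2 and Maff. Of these Fosb, Fosl2 and Maff are not shown, with log2 ratios of KO over WT over all cells of 0.03, -0.05 and 0.27. Jun, with a ratio of 0.63, held no match of any kind and is not shown. Nfkbia, Ier3, Tnfaip3 and Fos are shown first, then Zfp36 with a CArG box. The relatives Nr4a1 and Nr4a2 follow, whose levels over all cells went opposite ways between the libraries. Each is written 5′ to 3′ along the gene, with the matches in capitals; Tnfaip3 has 2 listed starts, of which 1 is shown.
Nfkbia (chr12:55492648-55492897, minus strand): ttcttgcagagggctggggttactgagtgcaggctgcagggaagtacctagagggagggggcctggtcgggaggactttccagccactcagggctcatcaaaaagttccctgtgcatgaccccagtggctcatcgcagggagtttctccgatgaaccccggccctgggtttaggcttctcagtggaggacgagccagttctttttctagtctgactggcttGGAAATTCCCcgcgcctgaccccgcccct
Ier3 (chr17:35821463-35821712, plus strand): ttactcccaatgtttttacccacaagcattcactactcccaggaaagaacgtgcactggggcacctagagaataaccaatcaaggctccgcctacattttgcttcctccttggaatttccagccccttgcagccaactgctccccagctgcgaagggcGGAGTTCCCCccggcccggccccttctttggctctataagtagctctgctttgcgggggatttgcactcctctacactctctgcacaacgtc
Tnfaip3 (chr10:19015411-19015660, minus strand): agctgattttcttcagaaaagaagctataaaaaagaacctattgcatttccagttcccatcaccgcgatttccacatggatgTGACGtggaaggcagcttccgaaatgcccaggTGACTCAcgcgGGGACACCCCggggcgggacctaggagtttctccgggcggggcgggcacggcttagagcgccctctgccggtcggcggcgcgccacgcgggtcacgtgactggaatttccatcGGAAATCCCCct
Fos (chr12:85473640-85473889, plus strand): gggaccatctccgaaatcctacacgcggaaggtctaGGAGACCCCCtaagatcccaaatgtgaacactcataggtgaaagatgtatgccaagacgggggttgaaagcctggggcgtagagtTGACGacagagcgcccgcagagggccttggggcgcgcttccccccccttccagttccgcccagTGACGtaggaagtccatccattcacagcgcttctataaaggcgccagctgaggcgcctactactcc
Zfp36 (chr7:28379229-28379478, minus strand): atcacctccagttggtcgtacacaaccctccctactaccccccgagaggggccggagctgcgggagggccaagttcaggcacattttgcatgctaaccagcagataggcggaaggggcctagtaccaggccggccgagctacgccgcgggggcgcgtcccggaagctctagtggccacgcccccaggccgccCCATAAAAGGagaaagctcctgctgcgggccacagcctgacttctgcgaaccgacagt
Nr4a1 (chr15:101266596-101266845, plus strand): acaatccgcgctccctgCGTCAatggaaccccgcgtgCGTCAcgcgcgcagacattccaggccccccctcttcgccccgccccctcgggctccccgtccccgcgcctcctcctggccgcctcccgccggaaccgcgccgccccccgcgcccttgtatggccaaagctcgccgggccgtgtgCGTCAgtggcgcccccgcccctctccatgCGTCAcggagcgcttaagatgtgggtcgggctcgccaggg
Nr4a2 (chr2:57124004-57124253, minus strand): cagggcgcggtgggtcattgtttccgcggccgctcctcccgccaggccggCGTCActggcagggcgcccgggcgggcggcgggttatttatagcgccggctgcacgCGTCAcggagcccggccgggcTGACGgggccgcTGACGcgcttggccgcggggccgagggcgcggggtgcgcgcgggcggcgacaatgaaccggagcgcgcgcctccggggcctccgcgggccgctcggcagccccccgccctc
Nfkbia held a kappaB match 29 bases before its start and Ier3 held one 92 bases before. Tnfaip3 held 4 matches, of which the kappaB match nearest the start began 12 bases before it. Fos held a kappaB match 214 bases before the start and half-sites 129 and 66 bases before it. Zfp36 held 1 match, a CArG box 58 bases before its start, while Nr4a1 and Nr4a2 held 4 half-sites each and no kappaB match. A match is a description of the letters and not evidence of binding, and sites outside the listed windows were not searched.

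The WT library held 8800 barcodes with 85367638 UMIs and the library labelled KO 6573 barcodes with 62465176 UMIs. After removal of low-quality barcodes (0 in WT and 1060 in KO) and of the highest doublet scores (440 and 276), 8360 WT and 5237 KO cells were left, whose median depth was 8291 and 9404 UMIs. Levels are given as UMIs per 1000000 UMIs (CPM) of the cells named. Runx3 stood at 255 CPM (95% Poisson interval 252 to 259) in WT and 192 CPM (189 to 196) in the library labelled KO, so its message was still counted there, and whether those reads lie in the deleted part is not known. The libraries also differed in the sex of their cells, since 79.5% of WT cells held Y-linked UMIs without Xist and 0.0120% the reverse, against 24.0% and 54.6% in the library labelled KO, where a further 8.34% of cells held both. The libraries shared 17 cell barcodes.

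Cells were assigned to 13 lineages by the share of fixed marker genes with a UMI. In 8 lineages both libraries held at least 20 cells, so that these could be compared: monocytes or macrophages (5080 WT and 3382 KO cells), T cells (1088 and 426), NK cells (276 and 84), cDC1 (38 and 21), cDC2 (90 and 63), mature dendritic cells (127 and 82), fibroblasts or mesenchymal cells (181 and 112) and mast cells or basophils (32 and 21). Every gate held its own markers above the level in the other gates. Cells were assigned by these same markers, so this describes the gates and does not test them. For T cells the 6 markers summed to 3363 CPM in WT and 3292 CPM in KO, against at most 51.8 and 33.0 CPM in another gate. The margin was smaller for cDC2, at 1574 and 1481 CPM against at most 799 and 777 CPM. No cell of either library passed as epithelial, so the colon label is not borne out by epithelial markers, and 730 WT and 528 KO cells stayed without a lineage. Neutrophils (11 and 77 cells) were too few in WT to compare.

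Over all cells the set was higher in the library labelled KO. Its members took 1.63% of all UMIs in WT and 2.04% in KO. Of 36 members 31 were higher and 5 lower, (46.6% of all genes measured were higher), with a median log2 KO/WT ratio of 0.33 (quartiles 0.21 and 0.42; ratios computed after adding 5 CPM to both levels), beside a median of -0.01 over all 18986 genes measured and -0.04 over the 6356 genes with a mean of at least 20 CPM. Rhob, Nfkbia, Ier3, Dusp2 and Jun passed 1.5-fold in the higher direction, that is 5 members of 36, where 0.864% of all genes did and 1.43% of genes of at least 20 CPM. No member passed 1.5-fold in the lower direction, which 0.611% of all genes did. The counting interval of the CPM ratio lay above 1 for 30 members, against 20.1% of all genes. The plot of member levels over all cells shows that the shift was uneven, from Nr4a2 at -0.37 to Rhob at 0.78.

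**Figure D1:**
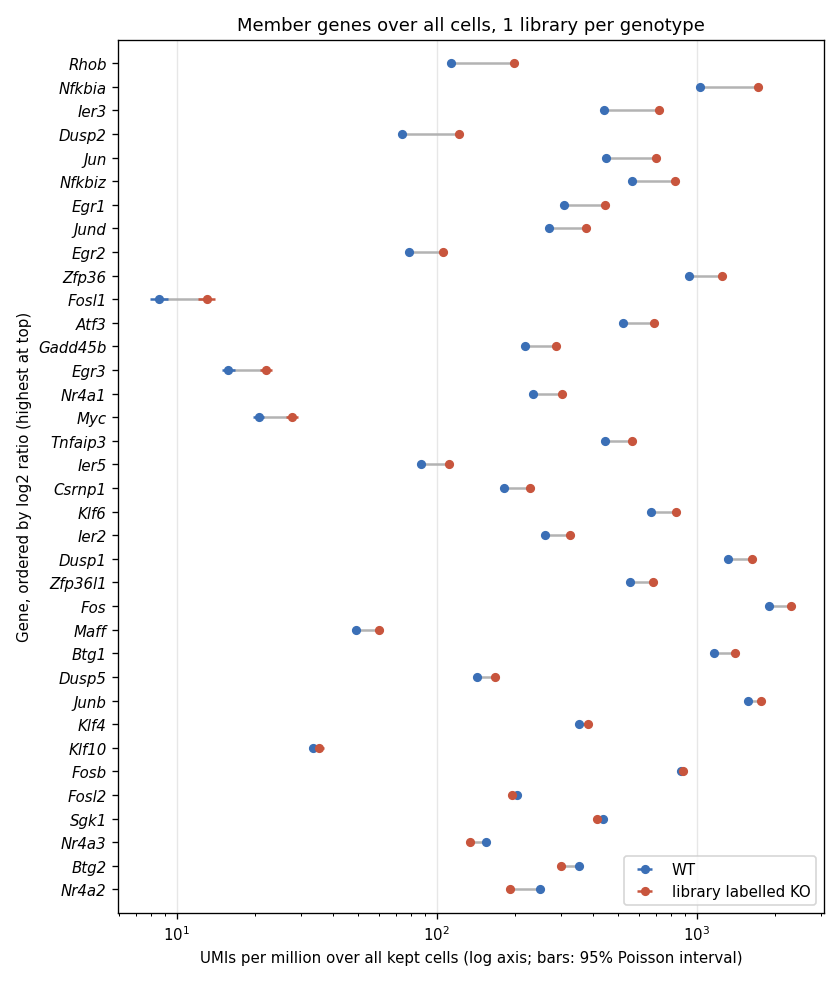
Level of each member gene over all kept cells (x axis, CPM, log axis) in the WT library (blue) and the library labelled KO (red), with 95% Poisson intervals that are mostly narrower than the points; genes are ordered by log2 ratio. The red point lies right of the blue one for 31 genes, and left of it for the 5 at the bottom, from Fosl2 to Nr4a2.

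All 3 NF-kappaB feedback genes were higher in the library labelled KO over all cells. Nfkbia (chr12:55489410-55492647, minus strand), which encodes the inhibitor that holds NF-kappaB in the cytoplasm, stood at 1030.4 CPM (1023 to 1038) in WT and 1719 CPM (1708 to 1730.1) in KO, a log2 ratio of 0.74. Nfkbiz, which encodes a nuclear cofactor of NF-kappaB, was at 565 and 825 CPM (0.54). Tnfaip3, the ubiquitin-editing brake on the pathway, was at 445 and 566 CPM (0.35). Their spread over the lineages was wide.

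Nfkbia was higher in the library labelled KO in all 8 lineages, yet by very different amounts. In monocytes or macrophages it went from 1160 CPM to 1857 CPM (log2 0.68), in T cells from 659 to 1031 CPM (0.64) and in fibroblasts from 669 to 1068 CPM (0.67). In NK cells it was nearly level at 386 and 402 CPM (0.06, with a counting interval of the CPM ratio of 0.902 to 1.20), and in mast cells at 1213 and 1271 CPM (0.07, 0.850 to 1.29). By counting error alone, 6 of 8 lineages had an interval above 1, and NK and mast cells did not. The T cell ratio of Nfkbia was 0.46 between cells with Y-linked UMIs alone and 0.38 with the T cell sub-gates weighted alike in both libraries. In cDC1 its ratio was 1.33, from 104 WT and 155 KO UMIs, of which a single KO cell gave 35.5%. Nfkbiz was higher in all 8 lineages too, from 548 and 549 CPM in cDC2 (0.00) to 321 and 549 CPM in mature dendritic cells (0.77). Tnfaip3 was highest against WT in fibroblasts (58.1 and 105 CPM, 0.80) and level in cDC2 (384 and 383 CPM).

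Of the 9 AP-1 and related factors, 8 were higher over all cells, with a median of 0.28. Jun, the founding partner of AP-1 dimers, stood at 447 CPM (443 to 452) in WT and 698 CPM (691 to 704) in KO (0.63). Its relative Jund was at 271 and 375 CPM (0.46), and Junb moved little at 1571 and 1766 CPM (0.17). Fos, the partner of the Jun proteins, was at 1896 CPM (1887 to 1906) and 2309 CPM (2297 to 2322), a log2 ratio of 0.28. Atf3, a stress-induced repressor, was at 519 and 688 CPM (0.40). Fosb was level at 868 and 889 CPM (0.03) and Fosl2 at 203 and 196 CPM (-0.05), and Fosl1 had a ratio of 0.41 and the small Maf protein gene Maff one of 0.27. Jun, Junb, Jund and Fosl1 overlap exons of an antisense gene, and the sources do not state whether the counting used strand, so reads of the partner may be included.

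Lymphocytes showed larger Jun and Fos ratios than macrophages did. Jun was at 184 CPM in WT and 348 CPM in KO T cells (0.90), at 179.9 and 314 CPM in NK cells (0.79) and at 422 and 650 CPM in monocytes or macrophages (0.62). The macrophage Jun ratio was 0.31 between cells with Y-linked UMIs alone and 0.42 with the macrophage sub-gates weighted alike, resident-type cells, in which Jun stood higher, being 392 of 5080 in WT and 691 of 3382 in KO. Fos was at 429 and 674 CPM in T cells (0.65) and at 329 and 528 CPM in NK cells (0.67), against 2353 and 2748 CPM in monocytes or macrophages (0.22). The macrophage differences were thus smaller as ratios and larger in CPM for Fos. Fos, Junb and Jund were higher in all 8 lineages, with a counting interval above 1 in 6, 4 and 7 of them, and Jun in 7, the exception being mast cells at 3148 and 3040.0 CPM (-0.05). Between T cells with Y-linked UMIs alone Junb was level (-0.01). Atf3 was mixed, at 124 and 182 CPM in T cells (0.54) but 208 and 159 CPM in mature dendritic cells (-0.38). The T cell value did not keep its sign between cells with Y-linked UMIs alone (-0.04) and was 0.25 without cells holding both Xist and Y-linked UMIs.

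Egr, Klf, Myc and Csrnp1 form the remaining early transcription factors, and all 8 were higher over all cells, with a median of 0.34. Egr1, a zinc finger factor induced by MAP kinase signals, stood at 308 CPM (304 to 312) in WT and 442 CPM (437 to 448) in KO (0.52). Egr2 (78.1 and 106 CPM, 0.42) and Egr3 (15.8 and 22.1 CPM, 0.38), which restrain T cell activation, and the growth regulator Myc (20.7 and 27.8 CPM, 0.35) were lower in level. Csrnp1 was at 182 and 229 CPM (0.32) and Klf6 at 668 and 833 CPM (0.32). Klf4 (353 and 383 CPM, 0.12) and Klf10 (33.5 and 35.3 CPM, 0.06) were close to level. Csrnp1 overlaps an antisense exon.

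Egr1 was 1 of 7 members that were not higher in T cells. It was at 94.5 CPM in WT and 82.5 CPM in KO T cells (-0.18, with a ratio interval of 0.744 to 1.02), the only lineage of 8 where it was not higher. In monocytes or macrophages it was at 346 and 477 CPM (0.46), in NK cells at 66.3 and 94.7 CPM (0.48) and in mast cells at 1043 and 1462 CPM (0.49). The largest ratio, 1.96 in mature dendritic cells, rested on 15 WT and 53 KO UMIs, 30.2% of the latter from 1 cell. Within the library labelled KO, Egr1 over all cells was at 301 CPM in cells with Y-linked UMIs alone and 488 CPM in cells with Xist alone. It was at 295 CPM in WT cells with Y-linked UMIs alone, so that over all cells like-sexed cells of the libraries had close levels. Between T cells with Y-linked UMIs alone Egr1 was further below WT, at 100 and 64.7 CPM (-0.59, from 514 and 48 UMIs). In monocytes or macrophages the log2 ratio between cells with Y-linked UMIs alone was -0.07, against the 0.46 of all cells of the gate. Klf6, at 446 and 606 CPM in T cells (0.44), was lower in mast cells at 1208 and 648 CPM (-0.89).

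The 3 Nr4a receptors, which bind DNA without a known ligand and are induced in T cells by antigen receptor signals, split. Nr4a1 was at 235 CPM (231 to 238) in WT and 304 CPM (299 to 308) in KO (0.37). Nr4a2 (chr2:57106830-57124003, minus strand) was at 249 CPM (246 to 253) and 191 CPM (188 to 195), the lowest ratio of the set at -0.37. Nr4a3 was at 155 and 134 CPM (-0.205). Opposite signs were seen in T cells, with Nr4a1 at 128 and 173 CPM (0.42), Nr4a2 at 495 and 338 CPM (-0.55) and Nr4a3 at 201 and 155 CPM (-0.36). The split was not seen in the CD8 T sub-gate, where 0 of the 3 receptors were higher, with a median of -0.14. Between T cells with Y-linked UMIs alone Nr4a1 was nearly level (0.03), while Nr4a2 (-0.42) and Nr4a3 (-0.39) stayed lower, and with T cell sub-gates weighted alike Nr4a1 was at 0.22. Opposite signs were also seen in monocytes or macrophages, where Nr4a1 was at 256 and 325 CPM (0.34), Nr4a2 at 206 and 168 CPM (-0.29) and Nr4a3 at 121 and 98.7 CPM (-0.28). There the lower Nr4a2 was not seen between cells with Y-linked UMIs alone, at 209 CPM in WT and 219 CPM in KO (0.07), beside 142 CPM in KO cells with Xist alone, and over all cells it was at -0.13 between such cells. In NK cells Nr4a2 was at 282 and 296 CPM (0.07) and all 3 receptors had a counting interval that included 1. Nr4a3 in cDC1 had a ratio of 1.61, from 31 and 58 UMIs, 43.1% of the latter from 1 cell.

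Ier2, Ier3 and Ier5 are small early response proteins, and all were higher over all cells. Ier3, an NF-kappaB target that affects cell survival, was at 441 CPM (436 to 445) in WT and 714 CPM (707 to 721) in KO (0.69). Ier2 was at 262 and 327 CPM (0.31) and Ier5 at 87.1 and 112 CPM (0.34). Ier3 was higher in 7 of 8 lineages, among them monocytes or macrophages (565 and 864 CPM, 0.61), cDC2 (80.8 and 169 CPM, 1.02) and mature dendritic cells (43.0 and 93.7 CPM, 1.04). In T cells it was at 74.9 and 113 CPM (0.57), but 0.35 between cells with Y-linked UMIs alone, 0.11 without cells holding both Xist and Y-linked UMIs and -0.23 between KO cells with Xist alone and WT cells with Y-linked UMIs alone. In mast cells it was lower, at 2371 and 1653 CPM (-0.52, with a ratio interval of 0.588 to 0.824).

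The Dusp genes encode phosphatases that inactivate MAP kinases, and all 3 were higher over all cells. Dusp2 was at 73.5 CPM (71.6 to 75.4) in WT and 122 CPM (119 to 124) in KO (0.69), Dusp1 at 1320.5 and 1635 CPM (0.31) and Dusp5 at 143 and 168 CPM (0.22). Dusp2 had the highest ratio of the set in monocytes or macrophages, at 67.1 and 130.0 CPM (0.90), and in mature dendritic cells, at 27.6 and 176 CPM (2.47, from 25 and 118 UMIs, 12.7% of the latter from 1 cell). In T cells its ratio was smaller, at 128 and 151 CPM (0.23). Dusp1 was higher in all 8 lineages, from 588 and 593 CPM in fibroblasts (0.01) to 665 and 1035 CPM in cDC2 (0.63). Dusp1 and Dusp5 overlap antisense exons.

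Zfp36 and Zfp36l1 encode proteins that bind AU-rich messages and mark them for decay, and Btg1 and Btg2 encode antiproliferative proteins that recruit deadenylases. Zfp36 was at 931 CPM (924 to 938) in WT and 1247 CPM (1238 to 1257) in KO (0.42), Zfp36l1 at 553 and 678 CPM (0.29) and Btg1 at 1168 and 1405 CPM (0.27). Btg2 went the other way, at 353 and 302 CPM (-0.22). The lower Btg2 was seen in monocytes or macrophages (380 and 318 CPM, -0.25), whereas T cells were nearly level (0.07). Zfp36 was at 252 and 393 CPM in T cells (0.63, or 0.12 between those with Y-linked UMIs alone) and 159 and 155 CPM in NK cells (-0.04). Both Zfp36 genes overlap antisense exons.

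Rhob, Gadd45b and Sgk1 stand for stress and cytoskeletal signalling. Rhob, a small GTPase gene induced early by growth factors, was at 114 CPM (112 to 116) in WT and 199 CPM (195 to 203) in KO, the highest ratio of the set at 0.78. It was at 122 and 217 CPM in monocytes or macrophages (0.80) and 31.3 and 56.2 CPM in T cells (0.75), but lower in mast cells (0.98 log2 units below WT, from 37 and 11 UMIs). By cell sex, Rhob over all cells was at 104 CPM in WT cells with Y-linked UMIs alone, 138 CPM in such cells of the library labelled KO and 218 CPM in KO cells with Xist alone. In monocytes or macrophages these levels were 121, 152 and 249 CPM. The sexes differed in cell mix as well, resident-type macrophages being 83 of 1256 KO cells with Y-linked UMIs alone and 529 of 2858 with Xist alone, so sex and cell mix cannot be told apart in these values. Gadd45b, a growth arrest gene that NF-kappaB induces, was at 219 and 288 CPM (0.38). Sgk1, a kinase gene that steroid hormones and cell stress induce, was at 437 and 412 CPM (-0.08).

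The lineages differed in how many members were higher and by how much. The median member ratio was above 0 in 8 of 8 lineages, though barely so in mast cells or basophils, and 25 members were measured (at least 20 UMIs over both libraries) in all 8. In every lineage where they were measured 9 of 36 members were higher, which 20.5% of all genes were, a share near the background. Of the 25 measured in all 8, 6 were higher in all, namely Fos, Junb, Jund, Dusp1, Nfkbia and Nfkbiz, which 4.99% of all genes measured in all 8 were. No member was lower in every lineage, and 27 had both signs. For 7 members the counting interval lay above 1 in some lineage and below 1 in another. The matching shares over all genes are not given, so these counts cannot be read as particular to the members. The heat map of ratios shows a mostly red field with blue stretches for Nr4a2, Nr4a3 and Btg2 and a mixed mast cell column.

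**Figure D2:**
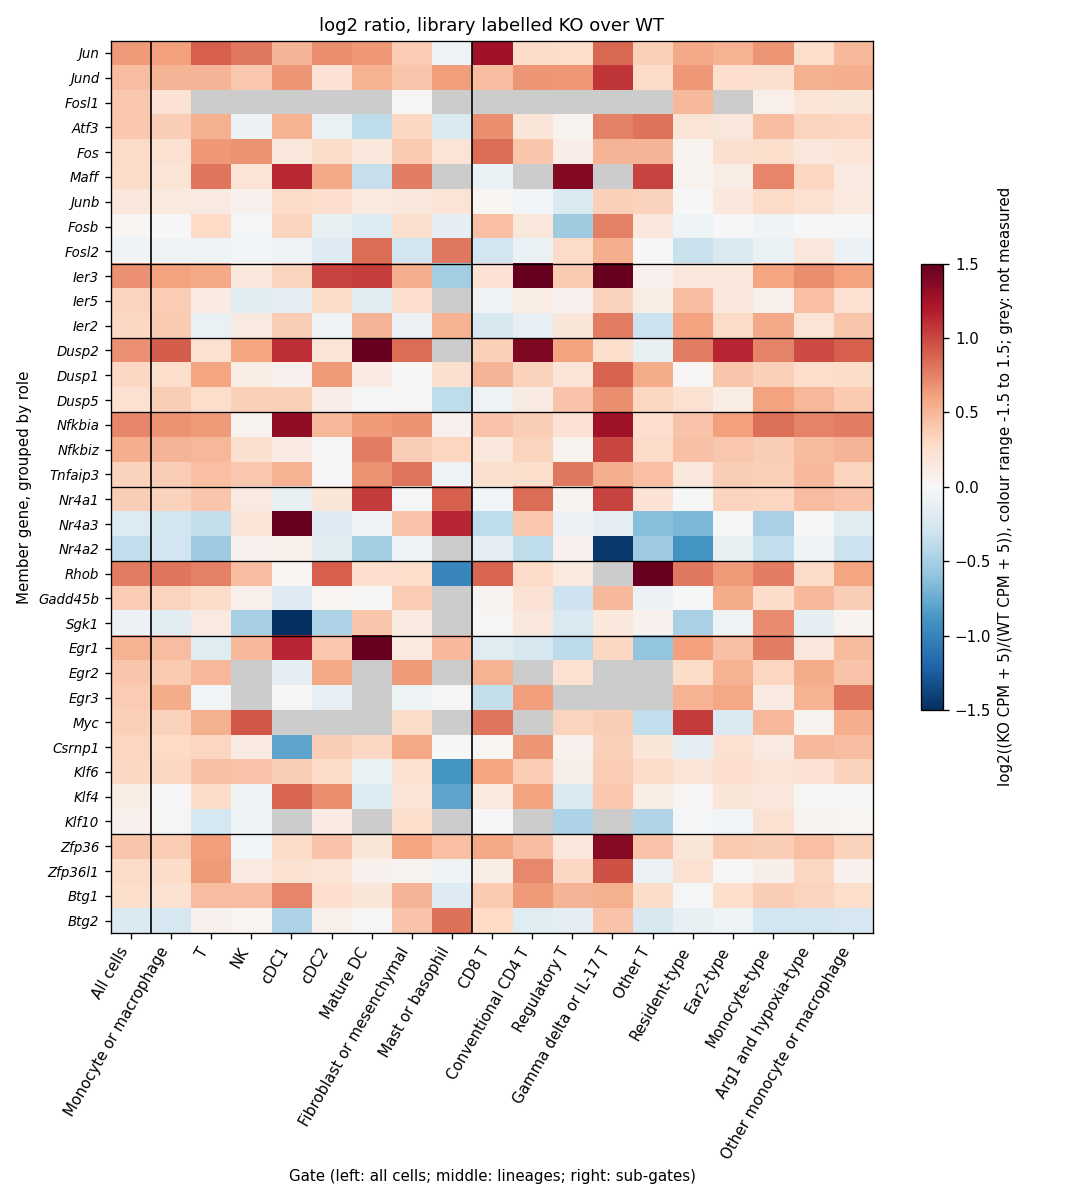
log2 of the KO to WT ratio (colour; red higher, blue lower, range -1.5 to 1.5, grey not measured) for each member gene (rows, grouped by role) in all cells, the 8 lineages and 10 sub-gates (columns). Nfkbia is red in all 8 lineages, Nr4a2 and Nr4a3 are blue in T cells and macrophages, and mast cells hold both colours.

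Monocytes or macrophages carried most of the set's UMIs, 74.1% in WT and 75.8% in KO, and their values set those over all cells. Their median was 0.34 with 30 of 36 members higher (49.5% of all genes measured) and 28 with a counting interval above 1 (21.2%), beside a median of -0.01 over genes of at least 20 CPM in them. Past 1.5-fold were 5 members (0.901% of all genes measured in the gate), which fell to 3 when cells with Y-linked UMIs alone were compared and to 3 when the macrophage sub-gates were given like weight in both libraries. Fibroblasts or mesenchymal cells had a median of 0.27 with 31 of 36 members higher (42.4% of all genes measured), 23 with an interval above 1 (6.55%) and 6 past 1.5-fold (2.08%), or 2 when 20 CPM in place of 5 was added to the levels. They included Maff, at 21.5 and 40.2 CPM (0.77). The 8 macrophage markers summed to 210 CPM in WT and 186 CPM in KO fibroblasts, all 8 detected in both, the 6 neutrophil markers to 42.0 and 56.6 CPM and the 6 T cell markers to 10.04 and 7.34 CPM, and their part in the fibroblast result was not tested.

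T cells had the highest median of the lineages, 0.42, with 28 of 35 members higher (44.8% of all genes measured), 25 with an interval above 1 (9.87%) and 8 past 1.5-fold (2.6%). Highest were Jun, Maff (17.6 and 34.3 CPM, 0.80) and Rhob, and lowest Nr4a2, Nr4a3 and Klf10 (-0.27). That median was less stable than those of the other large gates. It was 0.26 without cells holding both Xist and Y-linked UMIs, 0.28 with the T cell sub-gates weighted alike in both libraries, and 0.15 between cells with Y-linked UMIs alone, when 2 members passed 1.5-fold. The mix of T cells differed, CD8 T cells being 645 of 1088 in WT and 156 of 426 in KO. The 8 macrophage markers summed to 801 CPM in WT and 799 CPM in KO T cells, with all 8 detected in both, and the 6 neutrophil markers to 7.62 and 33.9 CPM, with Retnlg at 0 in both. Their part in the T cell result was not tested.

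NK cells, the cell type the series text asks about, had a median of 0.13 with 25 of 33 members higher (45.4% of all genes measured), 10 with an interval above 1 (4.88%) and 4 past 1.5-fold (3.98%). The 4 were Myc (35.1 and 71.8 CPM, 0.94), Jun, Fos and Dusp2 (156 and 238 CPM, 0.59). Of the 33 measured members 23 had a counting interval that included 1, with 84 KO cells behind the values, so that differences of the size seen in macrophages were often not resolved at this depth. Macrophage markers summed to 417 CPM in WT and 263 CPM in KO NK cells, with all 8 detected in both, and their part in the NK result was not tested.

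Dendritic cells gave positive medians from few cells. In cDC1 it was 0.29, with 25 of 33 members higher (50.7% of all genes measured) and 10 with an interval above 1 (7.71%). There 8 members passed 1.5-fold higher (11.9%) and 2, Sgk1 and Csrnp1, lower (10.9%). In cDC2 it was 0.21, with 25 of 34 higher (43.6%), 14 with an interval above 1 (6.02%) and 5 past the fold (6.54%). In mature dendritic cells it was 0.18, with 22 of 31 higher (45.9%), 13 with an interval above 1 (6.95%) and 9 past the fold (7.54%). Klf4, a monocyte and dendritic cell factor, was at 176 and 290 CPM in cDC2 (0.70). With a minimum of 200 UMIs per gene the counts past the fold were 2, 3 and 4, for which no share of all genes at that minimum is given. Mast cells or basophils were the weakest case, with a median of 0.05 over 26 measured members, 14 higher (42.4% of all genes measured) and 12 lower, 8 with an interval above 1 (6.65%), beside a median of -0.11 over all genes measured. Past the fold were 5 members higher (10.8% of all genes measured) and 3 lower, Rhob, Klf6 and Klf4 (21.1%), from 21 KO cells.

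**Figure D3:**
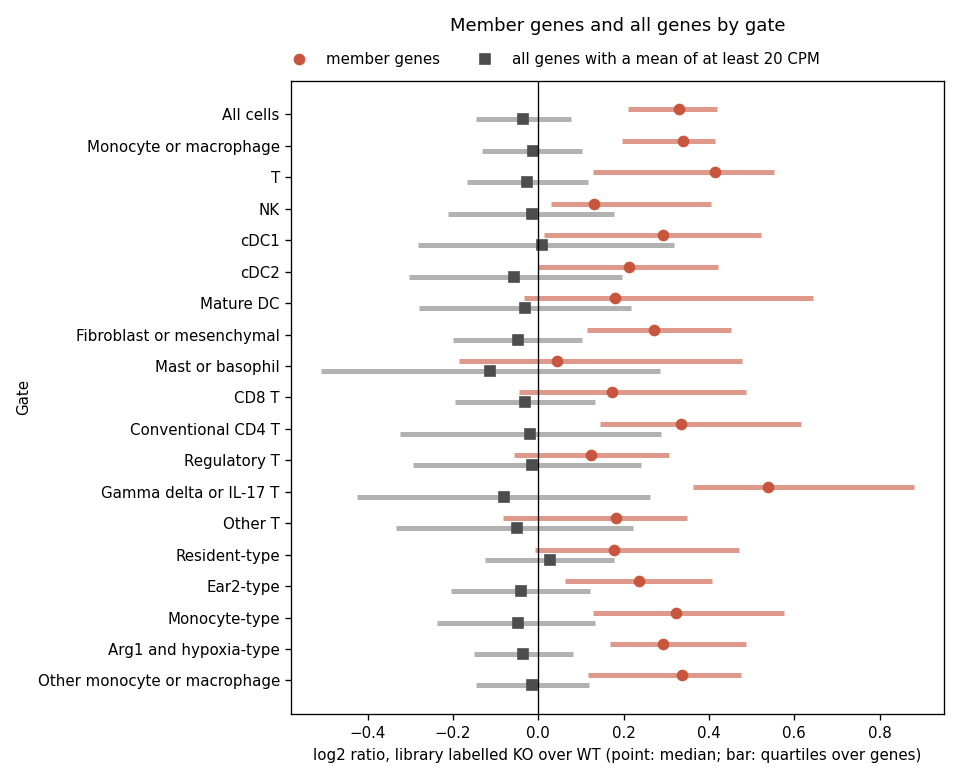
Median (point) and quartiles over genes (bar) of the log2 KO/WT ratio, for the member genes (red) and for all genes with a mean of at least 20 CPM (grey), in all cells, 8 lineages and 10 sub-gates. Every red point lies right of 0 and of its grey point, from 0.05 in mast cells or basophils to 0.54 in gamma delta or IL-17 T cells.

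Sub-gates of T cells and of macrophages, which are parts of the gates already described, had medians above 0 in 10 of 10. Gamma delta or IL-17 T cells (81 WT and 42 KO cells) had the highest, 0.54, with 28 of 30 measured members higher (43.9% of all genes measured) and 13 past 1.5-fold (9.86%). There Nfkbia was at 594 and 1443 CPM (1.27) and Zfp36 at 230 and 600 CPM (1.37), while Nr4a2 was at 339 and 121 CPM (-1.45). Regulatory T cells had the lowest, 0.12, with Fosb 0.53 log2 units lower and Tnfaip3 at 462 and 802 CPM (0.79). In CD8 T cells the median was 0.17, with Jun at 144 and 351 CPM (1.26, 15.0% of the KO UMIs from 1 cell) and Nr4a3 at 211 and 161 CPM (-0.38).

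Macrophage sub-gates ranged from a median of 0.18 in resident-type cells to 0.32 in monocyte-type cells and 0.34 in those of no sub-gate. In resident-type cells 25 of 36 members were higher, beside 56.6% of all genes measured there, whose median was 0.04. Resident-type cells held the markers Pf4 (1087 CPM in WT and 1464 CPM in KO), Fcrls (327 and 678 CPM) and Folr2 (60.6 and 91.8 CPM), while Cd163, also among the 6 markers, was near absent (1.59 and 8.79 CPM). Monocyte-type cells held Ly6c2 (997 and 538 CPM) and Ccr2 (732 and 633 CPM), both lower in KO. The other markers of that sub-gate were higher in KO. They were Chil3 (383 and 699 CPM), Vcan (105 and 236 CPM), Plac8 (1375 and 1461 CPM) and F13a1 (280 and 359 CPM). Resident-type cells (392 and 691) were the only macrophage sub-gate with all 3 Nr4a genes below WT; Nr4a2 was at 127 and 66.0 CPM (-0.90) and Nr4a3 at 53.0 and 31.2 CPM (-0.68), while Nr4a1 was at 234 and 233 CPM (-0.01, with an interval that included 1). Fos and Dusp1 were level there, at 3199 and 3324 CPM (0.05) and at 1910.3 and 1938 CPM (0.02), but Jun was at 878 and 1304 CPM (0.57). In monocyte-type cells Nfkbia was at 1140 and 2029 CPM (0.83) and Egr1 at 205 and 352 CPM (0.77). Sgk1 differed in sign between these sub-gates, at 328 and 233 CPM in resident-type cells (-0.49) and 274 and 450 CPM in monocyte-type cells (0.71).

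The shift lay across cells and not in a few. Members took a median of 156 of every 10000 UMIs of a cell in WT (quartiles 102 and 212) and 206 in KO (144 and 268). By lineage the medians were 182 and 227 in monocytes or macrophages, 88.1 and 115 in T cells, 77.4 and 98.7 in NK cells, 70.2 and 92.0 in cDC1, and 98.7 and 124 in fibroblasts. The quartile ranges of the libraries overlapped in all of these. Mast cells or basophils went the other way, at 276 and 236. The uncompared neutrophils had medians of 432 in 11 WT cells and 352 in 77 KO cells, and neutrophil markers summed to 67.8 CPM in WT and 320.0 CPM in KO over all cells. With lineages weighted alike in both libraries the median ratio over all cells was 0.31.

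**Figure D4:**
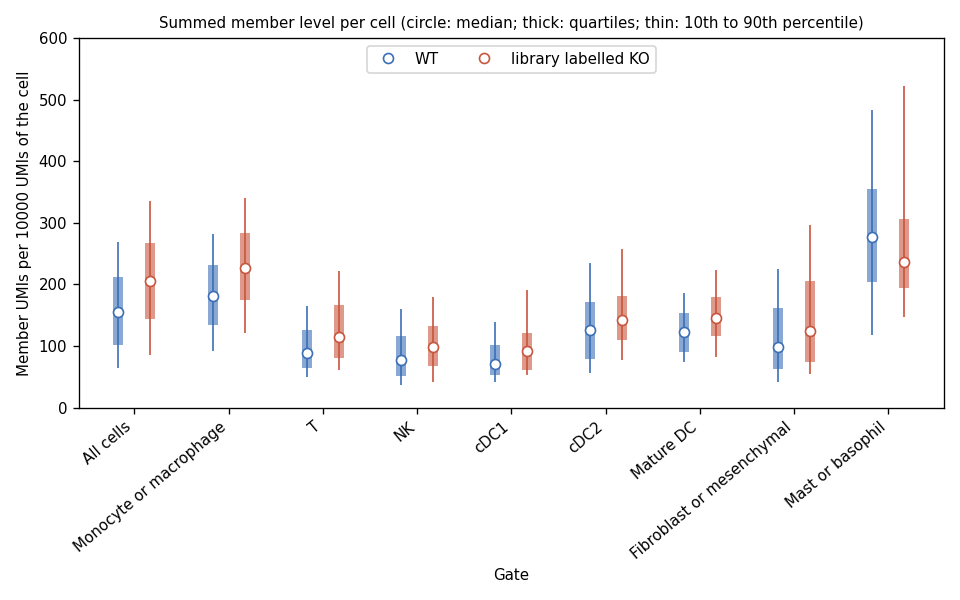
Summed UMIs of the 36 members per 10000 UMIs of a cell (y axis) in WT (blue) and the library labelled KO (red), by gate: circles are medians over cells, thick bars quartiles and thin lines the outer deciles. The KO circle is the higher in all cells and in 7 of the 8 lineages, mast cells or basophils being the exception.

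Cells of both sexes in the library labelled KO carried the higher load. Members took 1.65% of UMIs in WT cells with Y-linked UMIs alone, 2.05% in such cells of the library labelled KO and 2.07% in KO cells with Xist alone. The same order held in T cells, at 0.967%, 1.15% and 1.25%, in NK cells, at 0.721%, 0.863% and 0.925%, and in monocytes or macrophages, at 1.84%, 2.24% and 2.25%. Among sub-gates it held in regulatory T cells and in resident-type (2.03%, 2.09% and 2.27%), Ear2-type and other macrophages. It did not hold in CD8 T cells, at 0.888%, 1.03% and 1.01%. Nor did it in monocyte-type macrophages, at 1.81%, 2.48% and 2.30%, or in Arg1 and hypoxia-type macrophages, at 1.81%, 2.27% and 2.22%. Between the sexes within the library labelled KO, the median member ratio was 0.04 over all cells, beside 0.05 over all genes, and 0.01 beside 0.06 in monocytes or macrophages. In the T and NK gates the cells with Xist alone stood higher, by a median of 0.16 beside 0.02 over all genes in T cells (25 of 35 members higher) and of 0.16 beside 0.02 in NK cells (20 of 30, from 20 KO cells with Y-linked UMIs alone). Within T cells this was seen in regulatory T cells (0.15 beside 0.01, 18 of 29) but hardly in CD8 T cells (0.03 beside 0.01, 17 of 32). The part of the T cell mix in the T cell value was not tested. Between cells with Y-linked UMIs alone the sign of the KO to WT ratio differed from that of all cells of the gate for 2 members over all cells (Fosb and Fosl2), 4 in monocytes or macrophages (Fosl2, Egr1, Nr4a2 and Klf10) and 6 in T cells (Junb, Egr2, Egr3, Atf3, Klf4 and Gadd45b). Cell sex here stands for whatever animals were pooled, which the labels do not give.

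Other genes of these pathways were taken as lists beside the members. The cytokine genes that NF-kappaB drives stood furthest above WT over all cells, with 16 of 18 higher, 13 past 1.5-fold (0.864% of all genes) and a median of 0.93. Among them the neutrophil chemokine gene Cxcl3 was at 26.1 and 287 CPM (3.23) and the granulocyte growth factor gene Csf3 at 0.563 and 20.8 CPM (2.21), while Ccl5 was at 482 and 421 CPM (-0.19). In monocytes or macrophages 18 of 18 were higher with a median of 0.94 (49.5% of all genes measured were higher). In T cells it was 13 of 16 with 1.03 (44.8%) and in NK cells 10 of 11 with 0.55 (45.4%). Macrophage markers summed to 801 CPM in WT and 799 CPM in KO T cells, and to 417 and 263 CPM in NK cells. Neutrophil markers summed to 7.62 and 33.9 CPM in T cells. The part of RNA from such cells in the lymphocyte cytokine values was not tested. Over all cells, other NF-kappaB feedback and target genes did not share the higher level of the cytokine genes. There 13 of 22 were higher (46.6% of all genes) and 0 past the fold (0.864%), with a median of 0.04. By lineage the median of this list ran from -0.14 in cDC2 to 0.67 in cDC1. In cDC1 19 of 21 were higher (50.7% of all genes measured) and 12 past the fold (11.9%), from 38 WT and 21 KO cells. In that list Bcl2a1d, a survival gene with near-identical copies that counting could split, was at 151 and 216 CPM (0.51), and Nfkbie, an inhibitor gene related to Nfkbia, at 92.8 and 79.7 CPM (-0.21).

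Among 28 other immediate early genes over all cells 21 were higher (46.6% of all genes) and 6 past 1.5-fold (0.864%), with a median of 0.18. Cebpb, a factor of the acute phase response, was at 59.6 and 130 CPM (1.06), Ppp1r15a, which restarts translation after stress, at 134 and 235 CPM (0.79), and the kinase gene Sik1 at 137 and 105 CPM (-0.37). The 28 kinases and factors upstream of the set had a median of -0.03 with 10 higher. Within them the kinase gene Map3k8 was at 40.1 and 55.9 CPM (0.43) and the coactivator gene Mrtfa at 146 and 111 CPM (-0.38). Heat shock genes, which heat and misfolded proteins induce, had a median of 0.01 with 7 of 14 higher and 0 past the fold. Hspa1b, which shares reads with its near copy Hspa1a, was at 58.4 and 78.3 CPM (0.39) and Hspb1 at 13.6 and 8.26 CPM (-0.49). Glucocorticoid-induced genes had a median of 0.11 with 8 of 11 higher, from Il1r2 at 306 and 211 CPM (-0.53) to Errfi1 at 139 and 189 CPM (0.43).

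**Figure D5:**
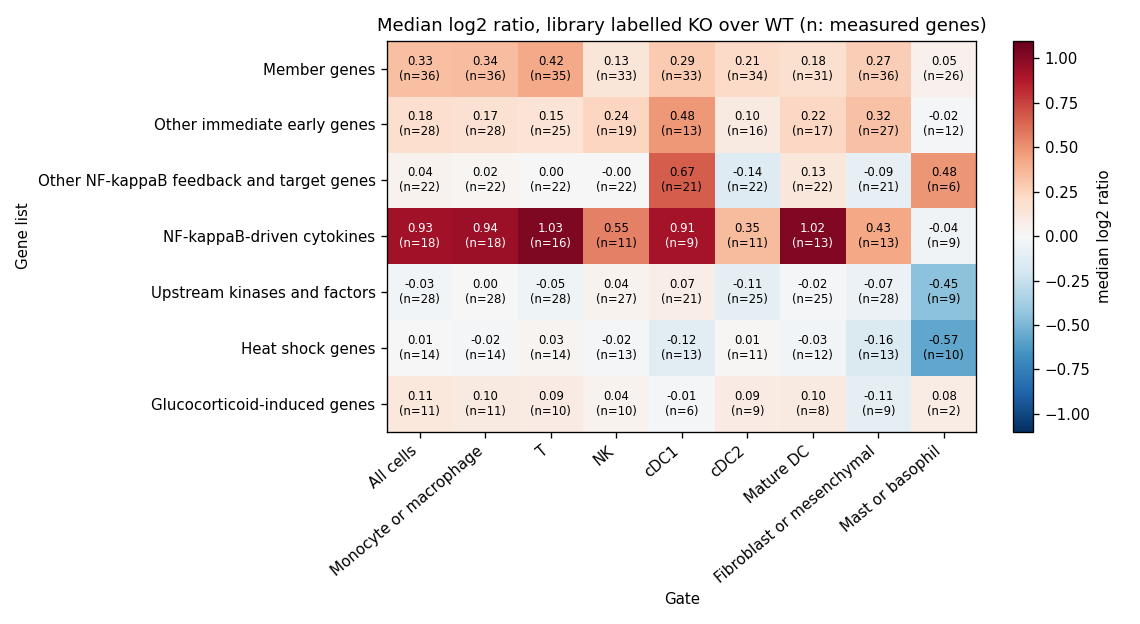
Median log2 KO/WT ratio (colour and number; n, measured genes) for the member genes and 6 other lists (rows) in all cells and 8 lineages (columns). Cytokine genes have the highest median in every column but mast cells or basophils, with macrophages, T cells and NK cells at 0.94, 1.03 and 0.55, while heat shock genes lie between -0.16 and 0.03 outside mast cells or basophils.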

How the data were processed

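Single-cell RNA sequencing of 2 mouse libraries was analysed from the deposited count matrices, which hold raw UMI counts per gene and barcode. They were made with Cell Ranger 8.0.1, per the file headers, and the submitters' processing notes name mm10 and Seurat 3; the sources do not state the counting strand or any filter before deposit. Barcodes with at least 500 UMIs, 200 genes and at most 25% mitochondrial UMIs were kept, without the 5% of each library with the highest Scrublet scores (scanpy 1.11.5).

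A cell joined the lineage with the highest share of its 6 to 8 markers holding a UMI, if that share was at least 0.5 and led every other by 0.25. Counts were summed per library and gate and scaled to CPM. Ratios are log2 of KO over WT after adding 5 CPM, for genes with at least 20 UMIs over both libraries in gates of at least 20 cells per library, with exact 95% Poisson intervals and, for the CPM ratio, the exact conditional interval. The script was tested on simulated counts. Gene positions come from GENCODE M21. All members are described over all cells, and in gates chiefly the 3 highest and 3 lowest with 12 preset members; from other lists up to 2 highest and 2 lowest. Cells were called by sex from Xist and 4 Y-linked genes. Members, markers and lists were chosen with earlier results of these data known. The alternatives changed the pseudocount, scaling, minimum UMIs, cell filter, doublet removal, gate, weighting and sex of cells.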

Additional observations from a re-analysis of the deposited data

How the results depend on the processing

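No paired analysis was possible because each genotype has 1 library and the labels carry no replicate numbers, and for the same reason no replicate could be left out. Of 119 alternative medians over the members, 119 were above 0, from 0.01 to 0.44, and none reversed. As close to the reported value 112 were counted, but this took in wide moves in small gates. Among them were 0.05 to 0.30 in mast cells without doublet removal and 0.21 to 0.39 in cDC2 with the stricter gate. Over all cells the stricter gate and the minimums of 200 and 1 UMI left the median unchanged. Cells with Y-linked UMIs alone were not compared in dendritic cells, fibroblasts or mast cells. Comparing cells with Y-linked UMIs alone gave medians of 0.29 over all cells, 0.26 in monocytes or macrophages and 0.15 in T cells, with 3 members past 1.5-fold in monocytes or macrophages and 2 in T cells. Leaving out cells with both Xist and Y-linked UMIs gave 0.26 and 3 members in T cells. A pseudocount of 20 CPM gave 0.30 over all cells, 5 members in T cells and 2 in fibroblasts, and cells weighted alike gave 0.36 over all cells. A minimum of 200 UMIs per gene left 3 members past the fold in fibroblasts, 1 in mast cells, 4 in mature dendritic cells, 2 in cDC1 and 3 in cDC2, and a minimum of 1 UMI gave 9 in mast cells. Sub-gates weighted alike gave 3 in monocytes or macrophages and 4 in T cells, no doublet removal 5 in T cells, and the stricter gate 10 in cDC2. Chosen after seeing the data, the comparison of KO cells with Xist alone against WT cells with Y-linked UMIs alone gave a median of 0.29 in monocytes or macrophages, and 4 members in T cells and 9 in cDC2 past the fold. Lineages weighted alike and a minimum mean of 20 CPM were also added then. Apart from that minimum mean, the share of all genes past the fold is not given under the alternatives. The counts past the fold therefore show only how far they depend on the setting. Of 540 values for 12 single members under the alternatives 418 stayed close, 122 moved and 7 changed sign. The settings of a minimum per gene could not change a single member's ratio, nor could the stricter gate over all cells. Their values are among the 418, so that number overstates how stable the single members were. Between cells with Y-linked UMIs alone the sign changed for Atf3 in T cells (0.54 to -0.04), Klf4 in T cells (0.28 to -0.08) and Egr1 in monocytes or macrophages (0.46 to -0.07). Ier3 in T cells went from 0.57 to -0.23 when KO cells with Xist alone were compared with WT cells with Y-linked UMIs alone, and Klf4 in monocytes or macrophages, at 0.01, changed sign in 3 settings, the lowest at -0.04. The causes of these moves were not tested, apart from fewer genes or cells where the setting itself removes them. Depth limits cDC1 and mast cells or basophils, with 21 KO cells each, and NK cells with 84.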
